A study of Drosophila melanogaster with 9 samples.

Results

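CG42808 and CG2016 are 2 genes of Drosophila melanogaster that stood in the deposited table of genes lower after Blimp-1 RNAi and also in the table of genes higher after Blimp-1 overexpression. They were chosen by these measured falls and rises, and taken by symbol from the 904 different genes in the 4 deposited tables. Expression was measured by mRNA sequencing in pupal retinas dissected together with the optic lobes, at 48 h after puparium formation (APF) and 25 °C. There were 3 groups of 3 libraries. Control pupae were lGMR GAL4/+, carrying a GAL4 driver that is active in the developing eye and no UAS construct. The other groups were lGMR GAL4>Blimp-1 RNAi and lGMR GAL4>UAS Blimp-1, here called RNAi and overexpression, so every pupa carried the driver. Retina and optic lobe were not separated in any library, and the sources used here do not say how many pupae were pooled. Values exist only for genes listed in a comparison, so the total depth is unknown. Over the 179 genes listed in both, a library held between 282442 and 617879 reads, which reflect expression as well as depth. Values are normalized read counts, which are reads divided by 1 factor per library, given as mean ± SD over 3 libraries. These factors, recovered from the values, ran from 0.78 in overexpression replicate 2 to 1.49 in control replicate 1.

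Blimp-1 is a zinc finger transcriptional repressor that is induced by the moulting hormone ecdysone. It acts in the timing of ecdysone responses in the fly. CG2016 is named Jhbp2 in the RefSeq and Ensembl annotation and belongs to the takeout family. These are small secreted proteins with a fold like that of the juvenile hormone binding proteins of moths, which carry the hydrophobic hormone in the blood. The founding member, takeout, is known in the fly for roles in feeding and male courtship. CG42808 has no named function, and the authors entered it as unknown.

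Both genes were lowest in RNAi, intermediate in control and highest in overexpression. These same values put the genes in the tables, so they are given as a description with no test. CG42808 (FBgn0261990) is a protein-coding gene on the minus strand of chromosome 2R, from base 13573618 to 13574257 in dm6. Its single annotated transcript is 1 exon of 640 bases, with a 5′ UTR of 75 bases, 135 codons and a 3′ UTR of 157 bases. Its normalized counts in the control libraries were 191.5, 273.5 and 315.6. The RNAi libraries held 41.8, 91.0 and 64.6, and the overexpression libraries 3385, 4301 and 3768. No 2 groups overlapped. The highest RNAi library was 2.10-fold under the lowest control library, and the lowest overexpression library was 10.7-fold over the highest control library.

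The mean of CG42808 went from 260.2 ± 63.1 in control to 65.8 ± 24.6 in RNAi, which was 3.95-fold lower (log2 ratio -1.98, standard error 0.37, n = 3 and 3). In overexpression it was 3818 ± 460, which was 14.7-fold higher than control (log2 ratio 3.88, standard error 0.23). In the authors' deposited table the fall had a log2 fold change of -1.87 and an adjusted p of 1.06e-07, and the rise 3.83 and 1.67e-48. These values are the ones that listed the gene. By size the fall was 73rd of the 189 listed falls and the rise 70th of the 514 listed rises. The RNAi libraries held 45, 75 and 76 reads of the gene, for a mean counting error of 12.6% per library. The RNAi libraries varied by 37.4% of their mean, so the spread between them was wider than counting error.

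CG2016 (FBgn0250839) lies on the minus strand of chromosome 3R, from base 4956999 to 4961351 in dm6. It has 4 annotated transcripts of 6 or 7 exons, with coding sequences of 183, 249 or 254 codons, and its exons together cover 1452 bases. The deposited values do not separate these transcripts. Normalized counts of CG2016 in the control libraries were 1574, 2283 and 2320. The RNAi libraries held 665.7, 894.5 and 1035, and the overexpression libraries 44585, 51851 and 39170. The groups again did not overlap, but the gap between RNAi and control was narrow, at 1.52-fold between the nearest libraries. The gap between overexpression and control was 16.9-fold.

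The mean of CG2016 went from 2059 ± 420 in control to 865 ± 186 in RNAi, which was 2.38-fold lower (log2 ratio -1.25, standard error 0.25, n = 3 and 3). In overexpression it was 45202 ± 6363, which was 21.95-fold higher (log2 ratio 4.46, standard error 0.21). In the authors' deposited table the fall had a log2 fold change of -1.18 and an adjusted p of 1.99e-06, and the rise 4.41 and 1.06e-71. The rise was 47th of 514 by size and 10th by adjusted p. The fall was 152nd of 189, near the limit of an absolute log2 fold change of 1 that the listed genes all pass. The listed falls nearest that limit were in CG8245 (-1.0002) and dyl (-1.001) in the authors' deposited table, and the rises nearest to it were in CG10352 and Fmo-2 (1.003 for both). Genes outside the limit were not analysed here. For CG2016 the spread between libraries was 14.1% to 21.5% of the group mean, against counting errors of 0.49% to 3.43%.

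**Figure D1:**
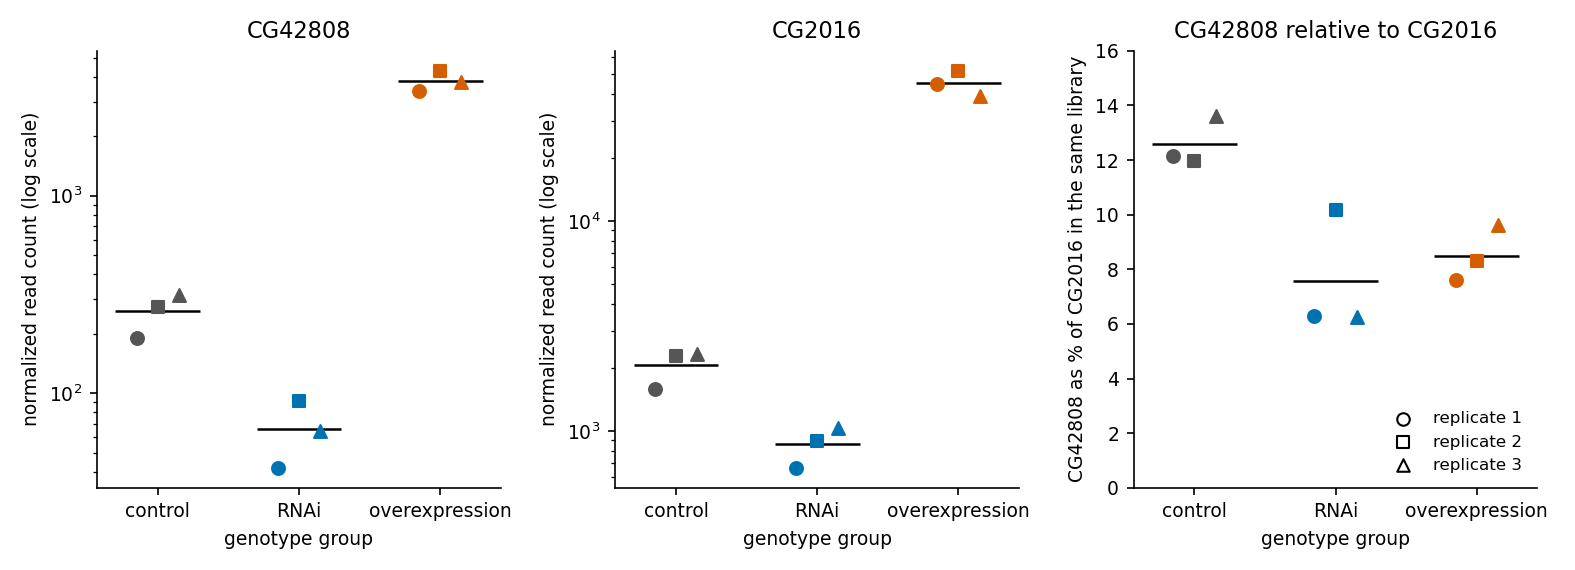
Normalized read counts of CG42808 (left) and CG2016 (middle) on log axes, and CG42808 as a percent of CG2016 in the same library on a linear axis (right), for 3 genotype groups. Each symbol is 1 library, its shape gives the replicate number and lines are group means; both genes are lowest in RNAi and highest in overexpression, and the percent is highest in control.

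Set against each other, overexpression exceeded RNAi by 58.0-fold for CG42808 and by 52.3-fold for CG2016. The log2 ratios were 5.86 and 5.71, with standard errors of 0.33 and 0.21. The genes thus spanned similar ranges, split differently around control. For CG42808 the fall was larger and the rise smaller than for CG2016. Within each library CG42808 was 12.2%, 11.98% and 13.6% of CG2016 in control. It was 6.29%, 10.18% and 6.24% in RNAi, and 7.59%, 8.29% and 9.62% in overexpression. The percent was lower in every altered library than in any control library, and the altered groups overlapped each other. Per length, CG2016 was the more abundant of the pair in all groups. Control libraries held a mean of 407 normalized counts per kb of exon for CG42808 and 1418 for CG2016, a 3.49-fold difference. The corresponding difference was 5.79-fold in RNAi and 5.22-fold in overexpression, where CG2016 reached 31131 per kb.

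Within groups, some libraries were low or high for both genes. Control replicate 1 was the lowest control library for both, at 0.74 of the group mean for CG42808 and 0.76 for CG2016. Over the 773 listed genes with a control mean of at least 20, the median of this ratio was 0.98 in that library. RNAi replicate 1 was the lowest RNAi library for both, at 0.64 and 0.77 of the group mean. In that library the median over 167 listed falls was 1.01. Overexpression replicate 2 was the highest overexpression library for both, at 1.13 and 1.15 of the group mean, and the median over 502 listed rises was 1.12 there. Blimp-1 itself was listed only for overexpression, so its level in RNAi has no value here. It held 874.0, 887.7 and 748.5 normalized counts in control and 23252, 9467 and 18277 in overexpression. The overexpression library with the least Blimp-1, replicate 2, thus had the most CG42808 and CG2016. With 3 libraries no relation within the group was computed.

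CG42808 and CG2016 share their pattern with few of the listed genes. Of the 179 genes listed in both comparisons, 27 (15.1%) were lower in RNAi and higher in overexpression, and 13 had the reverse pattern. Another 78 were higher in both and 61 lower in both. Both comparisons use the same 3 control libraries. Listed falls in RNAi made up 50.7% of 373 listed genes, and listed rises in overexpression 72.4% of 710. The altered and control libraries did not overlap in 100% of the listed falls in RNAi and in 99.6% of the listed rises in overexpression, so the lack of overlap in CG42808 and CG2016 is shared by nearly all genes in those tables. Over the 27 genes the median log2 ratio was -1.49 in RNAi and 1.87 in overexpression, with signs that follow from how the 27 were chosen. Over all 179 genes, which mix both directions, the medians were 1.11 and 1.51. The difference between the 2 sets is therefore no result. Among the 27, CG2016 had the largest rise but only the 22nd largest fall, and CG42808 the 2nd largest rise and the 9th largest fall. CG42808 had the widest span from RNAi to overexpression, at 58.0-fold, and CG2016 the 4th widest, at 52.3-fold. ImpL1 and CG3339 lay between them, at 55.9-fold and 52.4-fold. Leaving out 1 library moved the span of CG42808 to between 49.1-fold and 71.7-fold, so the order of these 4 is not settled.

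**Figure D2:**
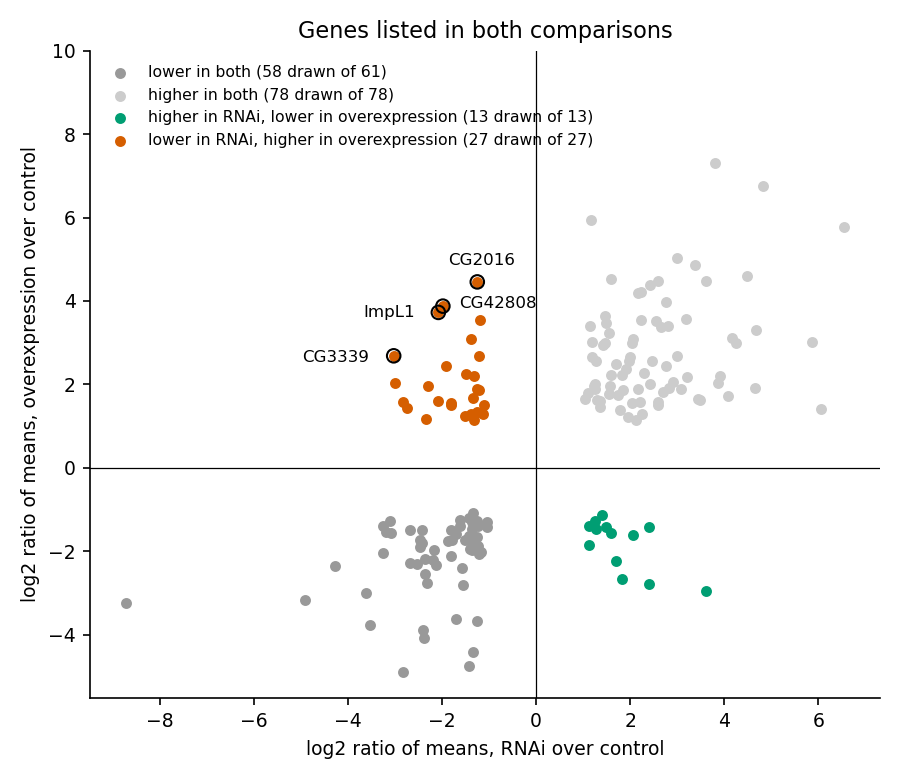
Log2 ratio of group means, RNAi over control (x axis) against overexpression over control (y axis), 1 point per gene listed in both comparisons, coloured by direction. CG42808, CG2016, ImpL1 and CG3339 are circled at the upper left, among 27 genes lower in RNAi and higher in overexpression; 3 genes with no read in an altered group are not drawn.

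At least 4-fold in both directions were 3 of the 27 genes (11.1%), namely ImpL1, CG3339 and CG34460. CG42808 missed this in RNAi at 3.95-fold and CG2016 at 2.38-fold. ImpL1 was first found as an ecdysone-induced gene of imaginal discs. Its control mean was 11460 ± 3487 normalized counts. The RNAi mean, 2713 ± 1080, was 4.22-fold lower, and the overexpression mean, 151516 ± 14739, was 13.2-fold higher. Its span of 55.9-fold lay between those of CG42808 and CG2016. CG3339, entered by the authors as cytoskeletal, was 8.16-fold lower and 6.42-fold higher, from 49.4 ± 15.5 in control. CG34460 was 8.05-fold lower and 4.12-fold higher, from 59.8 ± 17.6. The RNAi libraries held only 6.51, 4.85 and 6.8 normalized counts of CG3339 and 6.51, 7.28 and 8.5 of CG34460. These 2 falls thus rest on few reads. By group means the fall was the larger change in both, whereas in CG42808, CG2016 and ImpL1 it was the rise. For CG3339 this is not settled. With a pseudocount of 1 its log2 ratios were -2.84 and 2.66. Without control replicate 2 it was 6.69-fold lower and 7.84-fold higher, while leaving out any other library kept the fall larger.

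The genes most like CG42808 and CG2016 across libraries were found by Pearson correlation of log2(value + 1) over the 9 libraries. Ranked were the 172 other genes listed in both comparisons whose mean reached 20 normalized counts. All points share the same libraries, and the 3 group levels carry most of the correlation, so it is a description only. CG42808 and CG2016 had r = 0.99 with each other. CG13077 came first for both, with r = 0.99 in each case. From 328.5 ± 24.3 in control, CG13077 was 2.27-fold lower in RNAi, at 144.4 ± 20.7, and 11.6-fold higher in overexpression, at 3802 ± 1181. The other genes among the top 6 for both were ImpL1, CAH2, out and Cpr51A. By Spearman's rank correlation only 1 of the 6 stayed in the top 6 for CG42808 and 2 for CG2016, so the order among the 27 genes depends on the measure.

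CAH2 encodes a carbonic anhydrase, which interconverts CO2 and bicarbonate. It was 2.32-fold lower in RNAi and 6.43-fold higher in overexpression, from 1620 ± 103 in control. The gene out encodes a putative monocarboxylate transporter and was 2.49-fold lower and 4.56-fold higher, from 155.6 ± 30.3. Cpr51A, a cuticle protein gene, was 2.62-fold lower and 8.52-fold higher, from 122.3 ± 54.0. These genes did not all follow CG42808 and CG2016 within groups. Control replicate 1 was lowest for CG13077, at 305.7 against 354.1 and 325.6 normalized counts, for Cpr51A, at 65.8 against 127.6 and 173.4, and for ImpL1, at 7440 against 13274 and 13666. It was not lowest for CAH2 or out. RNAi replicate 1 was lowest for CG13077, at 123.7, for ImpL1, at 1965, and for out, at 50.2. It was intermediate for Cpr51A, at 46.5, and highest for CAH2, at 786.6. In overexpression, replicate 2 was highest for CG13077, Cpr51A and CAH2, at 5146, 1383 and 11012, but lowest for ImpL1, at 135119, and for out, at 683.8.

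**Figure D3:**
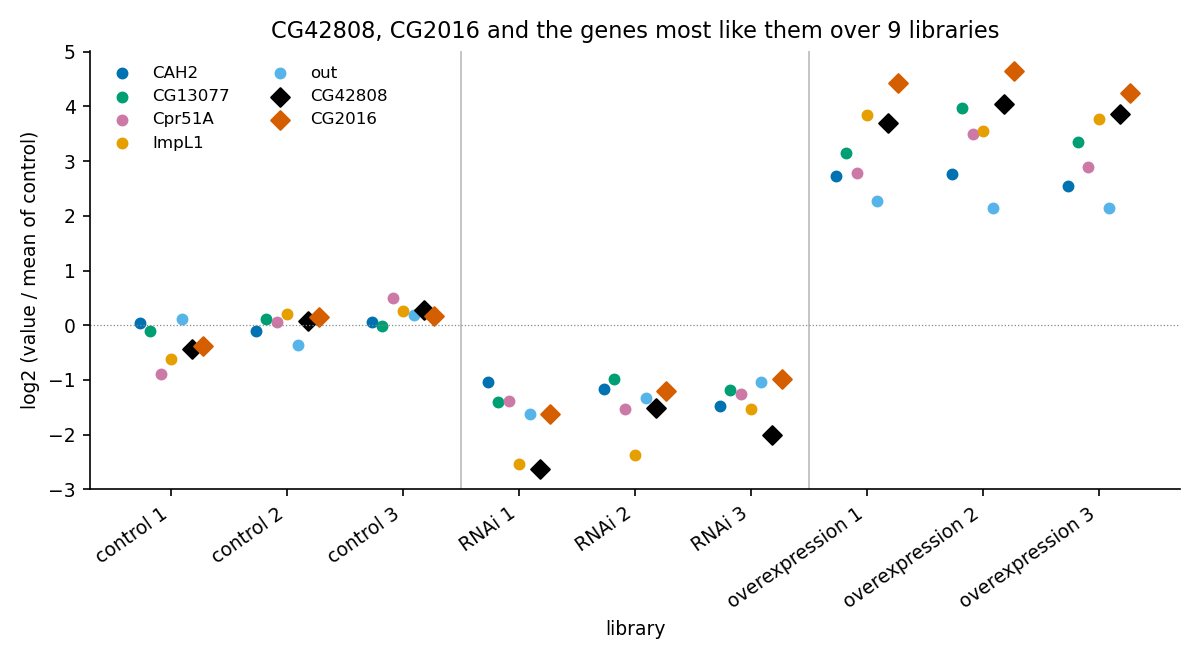
Log2 of each library's normalized count over the control mean of the same gene (y axis) for the 9 libraries (x axis); diamonds are CG42808 and CG2016 and circles the other genes among the 6 most like either. CG2016 lies highest in all overexpression libraries and CG42808 is the lowest in RNAi replicates 1 and 3.

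In the takeout family, CG2016 was the only gene listed as lower in RNAi and had the largest of the 3 listed rises in overexpression. CG2016 was chosen by that fall and rise, so this does not set it apart within the family. The family list held 28 genes, of which 15 carry a Jhbp name or are takeout itself in the annotation. For RNAi 1 gene of the 28 was listed as lower (listed falls were 50.7% of listed genes) and 2 as higher (listed rises were 49.3%), and for overexpression 3 were higher (listed rises were 72.4%) and none lower. The percentages in brackets are shares of listed genes, so they are no measure for counts out of 28. Of annotated protein-coding genes, 1.28% were listed as lower and 1.28% as higher in RNAi. For overexpression 3.42% were listed as higher and 1.32% as lower. Of the 15 named genes, 1 was lower and 1 higher in RNAi and 2 were higher in overexpression. The gene takeout was in none of the tables. The median log2 ratio of the listed family genes was 2.04 in RNAi and 1.55 in overexpression, against -1.05 and 1.70 over all listed genes. The -1.05 lies at the edge of the gap left by the listing limit. In edgeR the median was -1.05 too, and 1.05 over genes with a mean of at least 50. With so few family genes listed, these shares and medians set nothing apart.

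CG1124, named Jhbp1, was listed for overexpression only. It held 609.3, 1113 and 945.6 normalized counts in control and 1662, 3008 and 1908 in overexpression, with no overlap, and was 2.47-fold higher. Its control replicate 1 was lowest and its overexpression replicate 2 highest, as for CG2016. The median listed rise was also above its group mean in overexpression replicate 2, at 1.12 of it. CG16820, which has no Jhbp name in the annotation, was higher in both genotypes, 4.11-fold in RNAi and 2.92-fold in overexpression. It held 164.6, 283.1 and 229.5 normalized counts in control, 1268, 818.1 and 699.8 in RNAi, and 662.3, 603.4 and 713.8 in overexpression. CG13618, named Jhbp12, was 8.09-fold higher in RNAi, with 7.36 ± 2.37 normalized counts in control and 59.6 ± 26.8 in RNAi. The control libraries held 26 reads of it in all. In RNAi, CG13618 and CG16820 thus moved the opposite way to CG2016.

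CG2016 lies between the family genes CG1124 and Jhbp3 on chromosome 3R. CG1124 is on the opposite strand, and 4093 bases lie between the starts of CG1124 and CG2016, which are transcribed away from each other. Jhbp3 is on the same strand as CG2016, 1746 bases beyond its end, and was in none of the tables. Within 50 kb of CG2016, CG1124 was the only one of 11 other annotated genes that was listed. Over the whole annotation 4.72% of 18358 genes were listed in either comparison. Around CG42808 none of the 22 other genes within 50 kb was listed, against the same 4.72% of the annotation, so these counts set neither interval apart. These include CG42807, 858 bases beyond its end on the same strand, and lncRNA:CR44365, on the opposite strand with 655 bases between the starts.

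**Figure D4:**
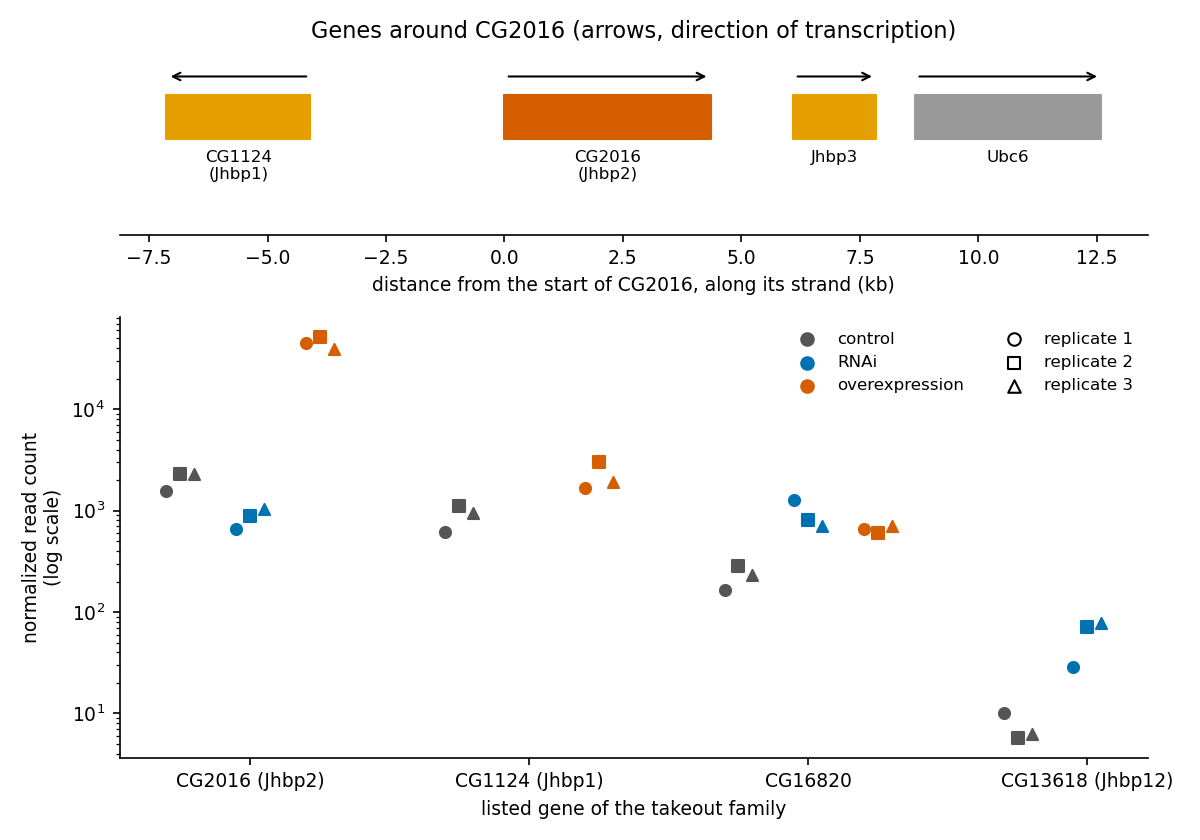
Top, genes around CG2016 as blocks by distance from its start in kb, with arrows for direction of transcription. Bottom, normalized read counts (log axis) of the 4 listed takeout family genes, 1 symbol per library. A group with no symbols was not listed for that gene. CG2016 is the only one of the 4 listed as lower in RNAi, where CG1124 has no values.

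Of 20 genes on the juvenile hormone pathway list, 1 was higher in RNAi and 3 were higher in overexpression, and none was lower. Over all 13986 annotated protein-coding genes, 1.28% were listed as higher in RNAi and 3.42% in overexpression, and counts this small set nothing apart. Jheh2, a juvenile hormone epoxide hydrolase gene, was 2.82-fold higher in RNAi, from 64.0 ± 11.0 to 180.2 ± 51.9. In overexpression Hmgs, for an enzyme of the mevalonate pathway that supplies juvenile hormone precursors, was 4.99-fold higher, from 1240 ± 98 to 6188 ± 972. The genes JhI-21 and JhI-26, named for induction by juvenile hormone, were 5.80-fold and 4.16-fold higher. All 3 were highest in overexpression replicate 2, like CG2016. Over 502 listed rises the median ratio to the group mean was 1.12 in that library, so this is not particular to these genes. The median log2 ratio of the 3 was 2.32, against 1.70 over all listed genes. The receptor genes Met and gce and the target gene Kr-h1 were in none of the tables.

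The deposited annotation differed between CG42808 and CG2016. The authors entered a peak of expression at 4 d of pupal life for CG42808 and at 12 h in the prepupa for CG2016, which are after and before the age of these samples. They classed CG2016 as secreted in the RNAi table and as cell surface in the overexpression table. CG2016 carried a mark for a Blimp-1 site and CG42808 did not, and neither carried one for Slbo, another transcription factor. Such marks stood beside 42.4% of genes listed for RNAi for Blimp-1 and 34.3% for Slbo. Among the 27 genes with the pattern of CG42808 and CG2016, 8 had the Blimp-1 mark (29.6%) and 6 the Slbo mark. In the 13 genes with the reverse pattern 9 had the Blimp-1 mark (69.2%). The sources used here do not say how sites and stages were assigned.

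Listed markers of several cell types were higher in overexpression, as were 72.4% of all genes listed there. Of annotated protein-coding genes 3.42% were listed as higher in overexpression and 1.28% as lower in RNAi. In the retina, the photoreceptor markers Arr1, Arr2, boss and trpl, 4 of 10 on that list, summed to between 7130 and 7422 normalized counts in control and between 60340 and 73643 in overexpression. In overexpression most of that sum was Arr2, at 54505 ± 6241. The rises of the 4 ran from 2.37-fold in boss to 289-fold in Arr1. For glia 4 of 6 markers were listed as higher, with sums of 4973 to 5378 in control and 12172 to 15147 in overexpression. For hemocytes 4 of 7 were higher, from 224.4 to 316.7 in control and from 937.4 to 1528 in overexpression. The fat body, a tissue known to express takeout, had 1 of 5 markers listed, Tsf1, at 10820 to 11757 in control and 21627 to 29576 in overexpression. The muscle list had Zasp66 alone, 1 of 5, at 3.36 to 17.3 and 68.9 to 143.0. The list of cone and pigment cell markers had 2 of 8 higher, the pigment genes bw and w. They summed to 13921 to 18097 in control and 33606 to 49070 in overexpression. In RNAi the listed markers were fewer. The photoreceptor gene chp, 1 of 10 markers, was lower, at 25179 to 28494 in control and 8467 to 17427 in RNAi. On the cone and pigment cell list 2 of 8 were lower, the pigment genes cn and st. They summed to 9611 to 10975 in control and 1628 to 2441 in RNAi. The hemocyte gene Ppn, 1 of 7, was at 1647 to 2203 in control and 479.4 to 665.8 in RNAi. Of 5 muscle markers sls was lower and Zasp52 higher. Their sum, mostly sls, was 1828 to 2249 in control and 681.5 to 941.3 in RNAi. No glia or fat body marker was listed for RNAi. Markers in no table have no values here, so none can be said to be at 0. The part of these cell types in the levels of CG42808 and CG2016 was not tested, and in such bulk samples a change in cell number and a change in RNA per cell cannot be told apart.

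Relative to the listed genes alone, the rises were smaller. The deposited scaling puts most genes listed for overexpression higher, with a median log2 fold change of 1.69 over the 710 genes in edgeR. With TMM factors computed over these genes the median became 0.17 and the log2 fold change 2.35 for CG42808 and 2.92 for CG2016, both still above 0.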

How the data were processed

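Per the labels' protocols, libraries were stranded and made from 250 ng of total RNA. The submitters' processing notes name the build dm6 and DESeq2, Subread 1.6.3, STAR 2.6.1d, bedtools 2.26.0 and Picard 2.18.20, without their roles. The authors deposited 4 tables of genes past an absolute log2 fold change of 1 and an adjusted p-value of 0.05. The deposited signal per library is the normalized read count, in which the authors divided reads by 1 factor per library; this is read from the values, which no header describes. The tables also hold a log2 fold change of control over altered genotype, deposited by the authors and turned around here, and the authors' adjusted p-values. The number of genes tested and the total depth are unknown.

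Each library's values were whole multiples of 1 step, and 100% of nonzero values gave whole reads to within 0.02 reads. Means, SDs and ratios used the normalized counts with no pseudocount. Library columns numbered 1 were taken as the group's title without a number. Genes in both comparisons were matched by FlyBase identifier, with 6 matched by symbol. Positions are from the Ensembl annotation BDGP6.54, which has dm6 coordinates. Intervals of counting error cover counting alone. Replicates are called biological in the study's design text, which does not say how they were collected.

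As an alternative, edgeR 4.0.16 and DESeq2 1.42.0 in R 4.3.3 were fitted to the recovered reads of listed genes after a check on simulated data. At an adjusted p of 0.05, edgeR called 373 of 373 genes for RNAi, 710 of 710 for overexpression and 114 of 179 for overexpression over RNAi. These genes had already been selected, so the calls are no further evidence.

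CG42808, CG2016 and the gene lists were chosen with earlier results of these data known. Named were these genes, Blimp-1, the 6 genes most like each, genes of the pattern with at least 4-fold change in both, listed members of the takeout and juvenile hormone lists, and listed genes within 50 kb. CG8245, dyl, CG10352 and Fmo-2 were named for their place at the limit after values were seen. Likeness used log2(value + 1) and a mean of at least 20.

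Equal replicate numbers were checked for pairing by correlating deviations from group means over 168 genes with a mean of at least 50. Every same-numbered pair of RNAi and overexpression libraries exceeded 0.1 (r = 0.32, 0.59 and 0.29). Pairs of these groups with different numbers ran from -0.47 to 0.07. Equal numbers thus deviated together in these groups, which does not establish that the libraries were collected in pairs. Same-numbered pairs with control did not all exceed 0.1, with r from -0.07 to 0.48. Control replicate 3 went more with replicate 2 of RNAi (r = 0.36) and of overexpression (r = 0.42) than with their replicate 3 (r = 0.08 and -0.07).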

Additional observations from a re-analysis of the deposited data

How the results depend on the processing

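The log2 ratios of CG42808 and CG2016 kept their sign under all 13 alternatives in each of 3 contrasts. Both genes were chosen by these changes, and no 2 of their groups overlapped. Leaving out a library, averaging log2 values or adding a pseudocount therefore could not reverse a sign, and the kept signs are no further evidence. With TMM factors over the listed genes, the log2 ratio of overexpression to control was 2.35 for CG42808 and 2.92 for CG2016. That of overexpression to RNAi, with the same factors, was 5.36 for CG2016. These factors assume that listed genes balance, and 514 of 710 were higher; edgeR then called 404 of 710, with 208 higher and 196 lower. Leaving out 1 library at a time gave log2 ratios in RNAi from -2.29 to -1.74 for CG42808 and from -1.41 to -1.09 for CG2016. In overexpression they ran from 3.70 to 4.04 and from 4.30 to 4.55. For overexpression over RNAi they ran from 5.62 to 6.16 and from 5.55 to 5.86. In edgeR with the replicate block, the log2 ratios were -2.02 and -1.25 in RNAi and 3.90 and 4.47 in overexpression. For overexpression over RNAi they were 5.91 and 5.72. In that contrast 117 of 179 genes were called, against 114 without the block. DESeq2 called 94 there. Requiring 4-fold change in both comparisons left 3 of 27 genes with the pattern. By Spearman's correlation, 1 of the 6 genes most like CG42808 and 2 of those most like CG2016 remained; leaving out 1 library kept 4 to 6 and 5 to 6. All 184 alternative values for other named genes, added after seeing the data, stayed within 1 SD of the replicates' log2 values. Most of them left out 1 of 3 libraries, which moves a group mean by less than 1 SD. That outcome was therefore nearly fixed in advance and says little about these genes. For CG42808 in RNAi the spread between libraries, 37.4% of the mean, exceeded the counting error of 12.6%, so depth was not the main limit there.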
